A study of Drosera capensis with 12 samples.

Results

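Traps of the Cape sundew (Drosera capensis) that had closed on living fruit flies were set against traps that had received no stimulus. These are 6 of the 12 RNA sequencing libraries of the series, chosen by sample title: 3 libraries of fly-closed traps and 3 of their own mock traps, called the fly mock below. The other 6 libraries come from a separate experiment in which the petiole received 100 mM of glutathione (GSH), a thiol-bearing tripeptide that plants and animals both make, with 3 libraries of GSH-closed traps and 3 of a GSH mock. They serve here as a second comparison, whose contrast shares no library with the fly contrast. GSH libraries did enter the choice of tested features, the scaling and the estimate of spread behind the fly calls. The comparisons are thus not fully independent. All samples are leaf traps, and the labels give no genotype, time after feeding, plant age or number of plants. Library codes give a time in minutes for the fly mock alone, so whether harvest times differed between the groups is not known. The agent label of the fly-closed libraries reads GSH, which goes against both their titles and their library codes; the titles were followed. Nothing in the labels says that replicate libraries stem from separate plants, so p-values measure the spread between these libraries, which may be technical.

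A sundew leaf carries stalked glands that end in drops of sticky mucilage. When prey is held there, the glands bend inward and the leaf blade folds, and the glands then secrete digestive enzymes and take up the nutrients that are released. In carnivorous plants, touch by prey and chemicals from it are known to set off electrical and calcium signals and a rise of jasmonates, the hormones that elsewhere in plants govern the response to wounding. The table holds features of a de novo transcript assembly with no gene names, so none of these pathways can be followed by name. The results are ordered by direction, size and abundance instead, and 4 features are given by their assembly IDs. In whole leaf tissue, fewer cells of a type and less RNA per cell cannot be told apart.

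A fly-closed trap holds its prey, so the comparison was kept to features seen in unstimulated leaves, meaning above 0 in at least 1 of the 6 mock libraries. Of 397048 features, 150717 met this and are called plant features, and 44458 of them, in 39052 assembly components, were abundant enough to be tested. Levels are given as TPM, a value as a part of its library's sum, times 1e+06. Changes are on the log2(TPM + 1) scale after scaling between libraries; for low features that scale gives too small a change. The sums of the deposited values ran from 17708300 to 20453100 per library, but these are rescaled values, so the number of reads behind a feature is unknown. Libraries of fly-closed traps correlated with each other at a Pearson's r of 0.917 to 0.922, with fly mock libraries at 0.894 to 0.906, and with GSH-closed libraries at 0.850 to 0.859. These r values are across features, which are not independent replicates.

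Far more plant features were called higher than lower in traps closed on flies. In fly-closed traps 1541 features were higher (3.47% of those tested) and 306 were lower (0.688%) than in fly mock traps, by limma with Benjamini-Hochberg adjustment and a threshold of 0.05, 4.15% in all. The risen features had a median change of 1.23, with quartiles of 0.76 and 2.02, and the fallen features one of -0.45, with quartiles of -1.04 and -0.31. The median change of all tested features was -0.00, and 49.0% of them had a positive change. TPM of fly-closed and fly mock libraries did not overlap for 1540 of the 1541 risen features and for all 306 fallen ones. That follows largely from calling them on these same libraries, so it is no further support. Among all tested features the groups did not overlap in 9.71% with fly-closed traps higher and in 8.43% with them lower. The plot of change against abundance shows both groups of calls over the whole set.

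**Figure D1:**
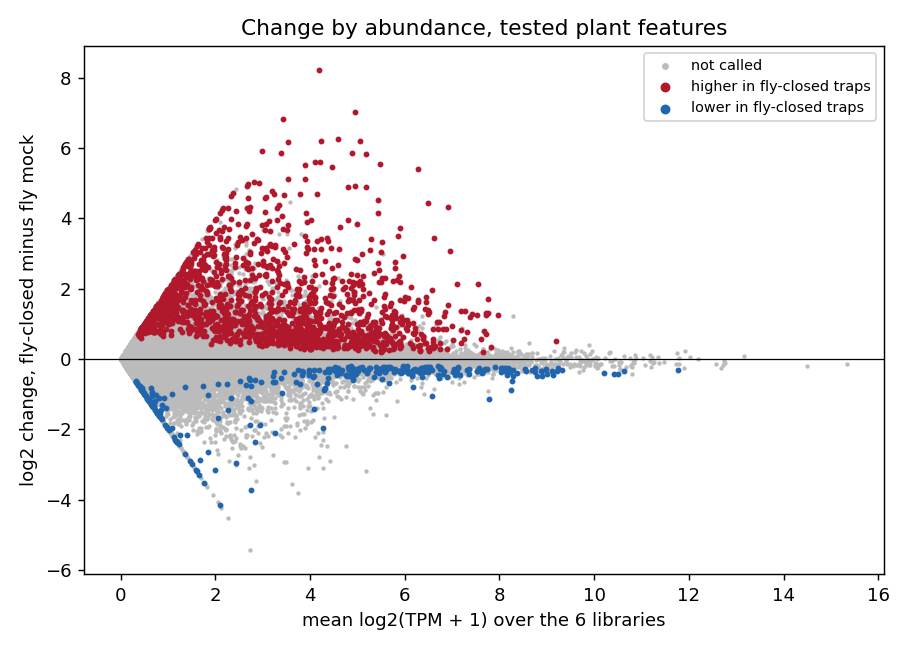
Each point is 1 of the 44458 tested plant features, with its mean log2(TPM + 1) over the 6 libraries of the fly experiment on the x axis and its limma log2 change, fly-closed minus fly mock, on the y axis; red and blue points are the 1541 higher and 306 lower features. Rises reach a change of 8.22, while most falls at high abundance lie just below 0.

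Large changes were mostly rises. A change of 2-fold or more was reached by 947 risen and 81 fallen features, one of 4-fold or more by 394 and 24, and one of 16-fold or more by 53 and 1. Features at 0 throughout the GSH experiment made up 52 of the rises of 2- to 4-fold, 26 of 4- to 16-fold and 2 of 16-fold or more. They made up 31, 9 and 0 of the falls of these sizes. Such features met the plant rule only through fly mock libraries, where fallen features are high. In the sum over all 1541 risen features the mean TPM was higher by 30842 in fly-closed traps, and the 306 fallen features together lost 8612. The gain was spread over many features: 121 made up 50% of it, and the top 10 held 11.5%. The loss was held by fewer, with 19 features making up 50% of it and the top 10 holding 37.1%.

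The risen features took up more of the RNA of tested features in fly-closed than in fly mock traps. Of the TPM of all tested features, they held 5.71%, 5.72% and 5.70% in fly-closed libraries 1, 2 and 3, against 2.12%, 2.13% and 2.12% in the fly mock libraries. The fallen features held 3.20% ± 0.0743 in fly-closed traps and 4.14% ± 0.0434 in the fly mock (SD, n = 3 each). The sets were chosen on these libraries, so the gaps follow from the choice and no test is given. The choice also favours features with a small spread, so the closeness of the libraries of a group is no finding. The shares describe how much RNA was involved. Taken over all TPM of a library instead, the risen features held 4.65%, 5.05% and 5.15% in the 3 fly-closed libraries; these libraries also held 17.8%, 11.0% and 8.89% of TPM in features that no mock library shows.

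The direction of the response differed with abundance. Rises were found in 1.20% of features whose mean log2(TPM + 1) was at most 1, in 3.86% between 1 and 3, in 5.11% between 3 and 5, and in 6.26% between 5 and 8. Above 8, where the most abundant transcripts of the leaf lie, 1 of 332 features rose and 36 fell (10.8%), with a median change of -0.34 among those that fell. The feature that rose there was at 663, 708 and 718 TPM in fly-closed libraries, against 514, 477 and 478 TPM in fly mock libraries. The most abundant feature of all was not called, at 38349, 39004 and 41033 TPM in fly-closed traps and 42617, 45739 and 43031 TPM in the fly mock (limma adjusted p = 0.781). Low features are harder to call on this scale, so the classes do not compare how readily low and high features responded.

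**Figure D2:**
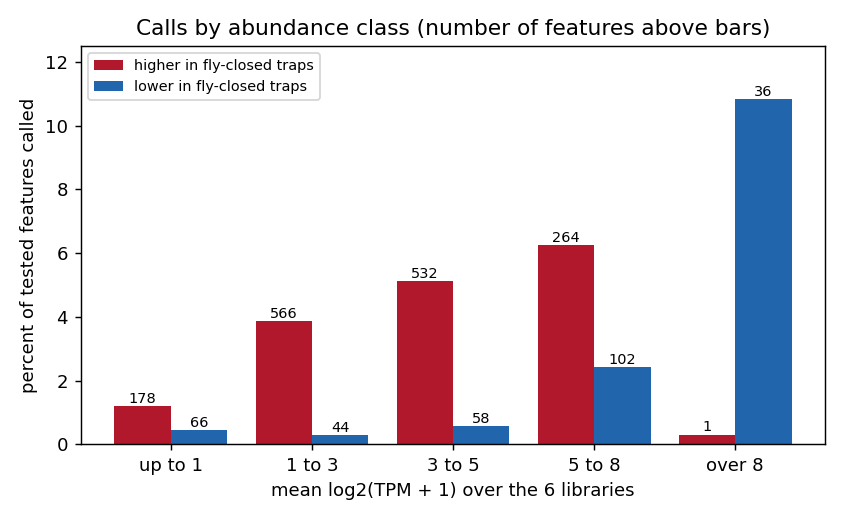
Bars give the percent of tested plant features called higher (red) or lower (blue) in fly-closed than in fly mock traps, in 5 classes of mean log2(TPM + 1) over the 6 libraries of the fly experiment, with the number of features above each bar. Rises outnumber falls in the 4 lower classes, and in the highest class 36 features fell and 1 rose.

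The 4 named features come from the 785 risen and 196 fallen ones that were above 0 in all 6 libraries of the fly experiment, did not overlap between the groups and had a mean log2(TPM + 1) of at least 3, which is the naming rule. TRINITY_DN22695_c0_g1 had the largest rise among them. It stood at 191, 215 and 221 TPM in fly-closed traps, against 1.71, 2.04 and 1.5 TPM in the fly mock. The lowest closed library was far above the highest mock library, and the limma change was 6.25 ± 0.10 (SE, adjusted p = 2.19e-10). GSH-closed traps held it at 55.0, 53.1 and 55.4 TPM, against 0.84, 0.38 and 0.7 TPM in GSH mock traps, a change of 5.38. The fly response was larger than the GSH response by 0.87 ± 0.14 (SE, limma adjusted p = 0.00191), a difference that was 0.20 (adjusted p = 0.718) with a pseudocount of 0.1; over the 16 alternatives the adjusted p ran from 0.000846 to 0.718.

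TRINITY_DN15669_c2_g1 gained the most RNA among the risen features that met the naming rule. Its level was 518, 528 and 571 TPM in fly-closed traps and 28.0, 33.5 and 19.2 TPM in the fly mock, a gain of 512 TPM in the mean. The limma change was 4.32 ± 0.40 (SE, adjusted p = 7.67e-05), and the closed libraries differed among themselves by less than the gap to the mock. GSH-closed traps reached 1087, 874 and 1058 TPM, against 3.55, 10.8 and 2.42 TPM in the GSH mock. Both the closed level was higher and the resting level lower in the GSH experiment, and the fly response was smaller than the GSH response by 3.50 on the log2 scale (limma adjusted p = 0.00213).

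TRINITY_DN27354_c0_g1 had the largest fall among the features that met the naming rule. It was at 2.61, 2.82 and 6.18 TPM in fly-closed libraries, against 17.0, 15.2 and 26.0 TPM in fly mock libraries. The groups did not overlap, and the limma change was -2.10 ± 0.34 (SE, adjusted p = 0.00444). GSH-closed libraries showed 3.11, 2.95 and 7.37 TPM and GSH mock libraries 3.34, 3.96 and 3.53 TPM. The fly mock was the group that stood apart, while the range of fly-closed traps overlapped that of both GSH groups, and the fly response was below the GSH response by a difference of -2.57 (limma adjusted p = 0.00494).

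Among the fallen features that met the naming rule TRINITY_DN8981_c1_g1 lost the most RNA, with 2837, 3168 and 3455 TPM in fly-closed traps and 4025, 3955 and 3782 TPM in the fly mock. The mean fell by 767 TPM, a small proportion of its level, and the limma change was -0.31 ± 0.07 (SE, adjusted p = 0.0490). The feature no longer passed in 13 of 17 alternatives, among them leaving out any 1 of the 6 libraries, and its adjusted p ran from 0.0175 to 0.198 over all 17. GSH-closed libraries held 974, 945 and 923 TPM of it and GSH mock libraries 2199, 2325 and 2213 TPM, a fall of 0.85 on the log2 scale (limma adjusted p = 1.04e-05).

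**Figure D3:**
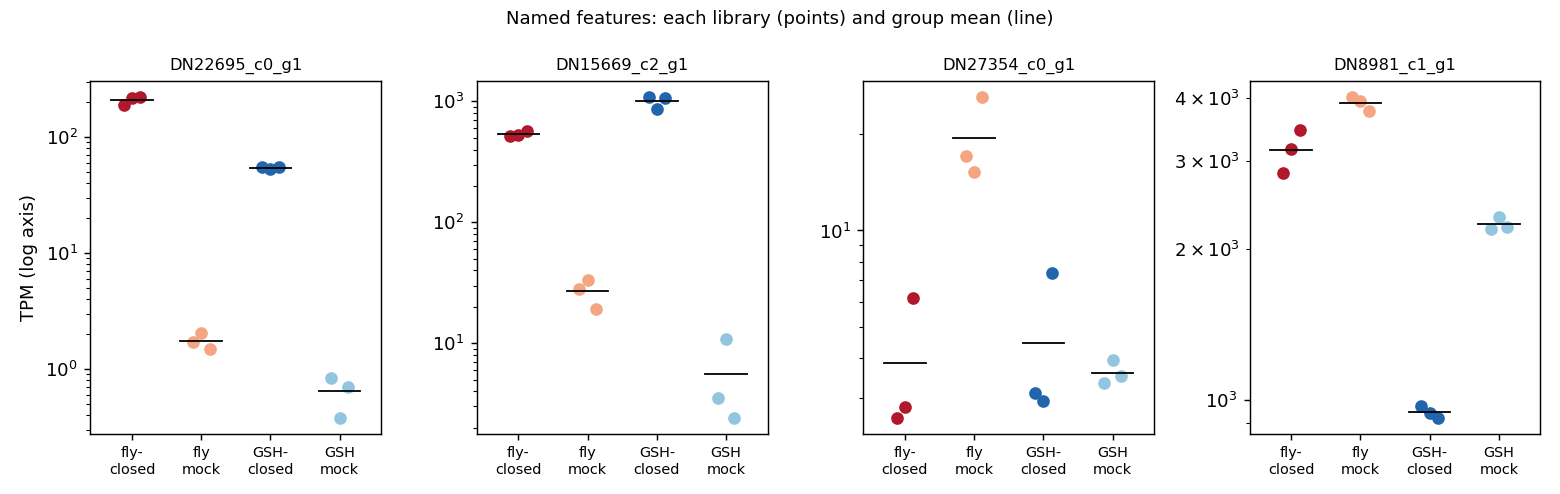
TPM of the 4 named features on log axes in fly-closed, fly mock, GSH-closed and GSH mock traps; points are the 3 libraries of a group and lines their mean. The first 2 features lie far above their mock in both experiments, the third is high in the fly mock alone, and the fourth is lower in closed traps of both experiments.

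A small set of features was nearly silent in the fly mock. In total 34 features reached at least 10 TPM in all 3 fly-closed libraries while each fly mock library had them under 1 TPM, and 33 of them passed the test as higher. Their mean level in fly-closed traps ran from 11.7 to 318 TPM, with a median of 18.7 TPM, and the median SD over the 3 closed libraries was 10.6% of the mean. The class takes features with a large change by its limits, so the passing share is no finding. The reverse was met by 2 features, neither of which passed (limma adjusted p = 0.0597 and 0.0965).

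Not all of these features were silent in the other resting traps: 21 of the 34 were under 1 TPM in every GSH mock library. Most of the 34 were also higher in GSH-closed than in GSH mock traps. GSH raised 31 of the 34, where it raised 13.9% of all tested features. The limits on TPM used no GSH library, but 7 of the 34 were at 0 in all fly mock libraries and so counted as plant features only through a GSH mock library. Of the other 27, GSH raised 25. In GSH-closed traps 28 were at 10 TPM or more in every library, and 16 of these were also under 1 TPM in every GSH mock library. The median level was 35.2 TPM in GSH-closed traps, and 26 of the 34 were higher there than in fly-closed traps. By the test of the difference, the response to flies was smaller for 18 and larger for 3, against 8.54% and 5.24% of all tested features; of the 3, 2 were at 0 throughout the GSH experiment, so their GSH response was fixed at 0.

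**Figure D4:**
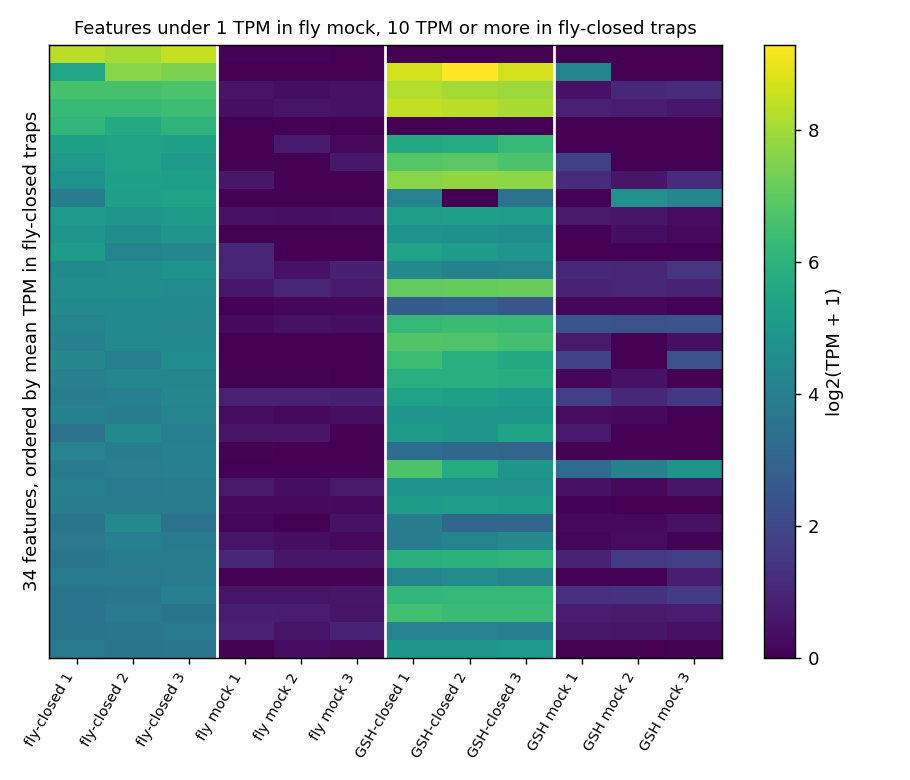
Rows are the 34 features that reached at least 10 TPM in all fly-closed libraries and stayed under 1 TPM in all fly mock libraries; columns are the 12 libraries by group, and colour is log2(TPM + 1). The fly-closed and GSH-closed columns are bright for most rows, and 2 rows are dark throughout the GSH experiment.

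One of the 2 that were at 0 throughout the GSH experiment had the largest fitted change among the called features, 8.22. It was at 325, 271 and 357 TPM in fly-closed libraries, against 0.07, 0.07 and 0 TPM in fly mock libraries. It entered the plant features only through those low fly mock values and passed the abundance limit only through the fly-closed libraries, where it is high, so no p is given for it. Of the 1541 risen features, 87 were at 0 throughout the GSH experiment, as were 570 of the 44458 tested features. Of the 87, 86 had a mean log2(TPM + 1) of up to 3. The 87 held 0.0626% of all TPM in fly-closed traps. Their origin, plant or prey, was not tested. Without features at 0 in the GSH experiment, an alternative chosen after the data had been seen, 1429 features rose and 233 fell.

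How often a feature was seen at rest also bears on the calls. Of 1639 tested features above 0 in a single mock library, 135 rose (8.24%). The share was 2.30%, 1.91%, 2.29% and 1.38% for features above 0 in 2, 3, 4 and 5 mock libraries, and 3.78% (1187 of 31428) for those above 0 in all 6, so it followed no steady order. A feature seen in 1 mock library was tested only if at least 2 closed libraries also held it, so the share for 1 library follows in part from the filter. In all, 1230 of the 1541 risen features were above 0 in all 3 fly mock libraries and 65 were above 0 in none, so that these counted as plant features only through a GSH mock library.

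Features raised by flies were mostly raised by GSH as well, and there by more. Of the 1541, GSH raised 1330 (86.3%) and lowered 16 (1.04%), against 13.9% and 12.6% of all tested features. Both sets of calls came from the same model with a shared estimate of spread, so they are not independent. The median change of the 1541 features was 1.23 after flies and 2.27 after GSH. They held 16.8% ± 0.0683 of tested TPM in GSH-closed traps and 3.78% ± 0.0584 in the GSH mock (SD, n = 3 each). In the fly experiment they held 5.71% ± 0.0103 in fly-closed traps and 2.12% ± 0.00606 in the fly mock, so the resting levels of the 2 experiments did not overlap either.

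The median change was larger after GSH than after flies in every size class of the fly response. Features raised less than 2-fold by flies had a median change of 0.68 after flies and 1.66 after GSH; those raised 2- to 4-fold had 1.39 after flies and 2.37 after GSH, and those raised 4- to 16-fold had 2.63 after flies and 3.76 after GSH. The 53 features raised 16-fold or more had 4.78 after flies and 6.06 after GSH, and GSH raised 49 of them. Among all tested features the contrast of the fly response with the GSH response was called in 13.8%, with the fly response below for 8.54% and above for 5.24%. With no scaling between libraries that order turned, and 73.6% of 9797 features that differed had the fly response above. For the risen features the contrast put the fly response below the GSH response for 919 of the 1541 and above it for 176, and 446 did not pass, for which a difference is neither shown nor absent. With no scaling 733 of the risen features were below and 239 above.

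**Figure D5:**
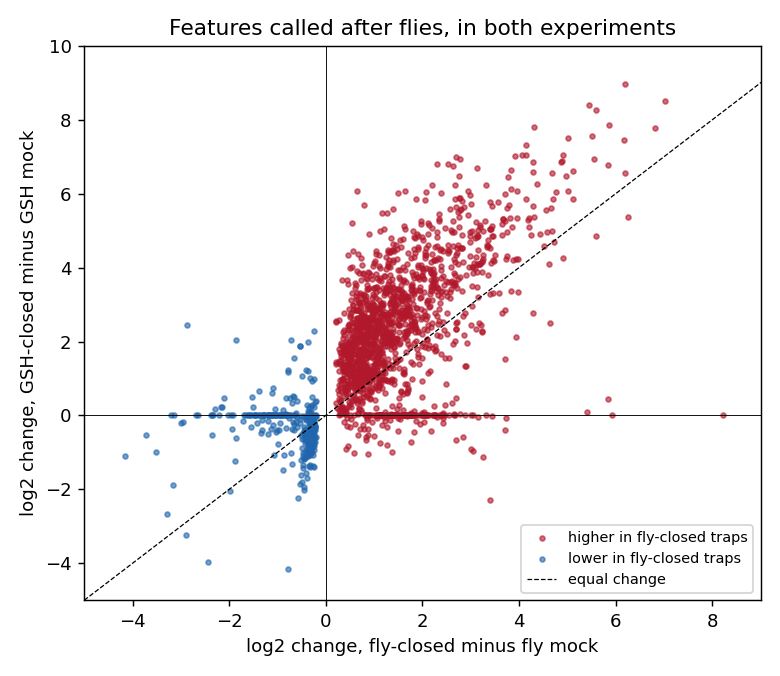
Each point is 1 of the 1847 features called after flies, with its log2 change after flies on the x axis and after GSH on the y axis; the dashed line marks equal changes. Most risen features (red) lie above the line, many of the rest lie at a GSH change near 0, and the fallen features (blue) form a dense group of small falls and a spread of larger falls near a GSH change of 0.

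Most of the features with a larger response to flies were rarely seen at rest: of the 176, 111 were above 0 in fewer than 3 of the 6 mock libraries, and 81 were at 0 throughout the GSH experiment. Of all 44458 tested features, 1639 were above 0 in 1 mock library and 2518 in 2, and 570 were at 0 throughout the GSH experiment. Those at 0 there passed the abundance limit only through the fly experiment. Of the 176, 13 were also raised by GSH, where GSH raised 13.9% of all tested features. The count was 67 when plant features had to be above 0 in at least 3 mock libraries, 94 when features at 0 in the GSH experiment were left out, and 78, 73 and 79 without fly-closed replicate 1, 2 and 3. Among risen features with a mean log2(TPM + 1) of at least 3 that were above 0 in all 12 libraries, the one that most favoured flies was at 44.2, 32.6 and 49.1 TPM in fly-closed traps and 8.55, 8.23 and 8.36 TPM in the fly mock. In the GSH experiment it was lower in closed traps, at 5.58, 4.96 and 4.98 TPM against 9.74, 8.63 and 9.91 TPM. The responses differed by 2.59 ± 0.19 (SE, limma adjusted p = 8.37e-06). This feature and its counterpart below were singled out after their values were seen.

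At the other end of that group, a feature with a small called rise after flies rose by far more after GSH. It was at 9.04, 8.77 and 8.38 TPM in fly-closed traps and 5.66, 5.86 and 5.43 TPM in the fly mock, a change of 0.56 (limma adjusted p = 0.00982). GSH-closed traps were at 90.5, 98.8 and 108 TPM and the GSH mock at 4.53, 5.27 and 4.68 TPM.

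Falls were also taken by size. The 225 features that fell by less than 2-fold had a median change of -0.36 after flies and -0.39 after GSH, and GSH lowered 141 of them (62.7%), against 12.6% of all tested features. The 57 that fell 2- to 4-fold and the 23 that fell 4- to 16-fold had a median GSH change of 0, and GSH lowered 4 and 3 of them. Of these larger falls 31 and 9 were at 0 throughout the GSH experiment, as were 570 of the 44458 tested features. No fall could be seen there, which fixes the median of 0 in the 2- to 4-fold class. Those at 0 met the plant rule only through fly mock libraries, where they are high. The size classes are thus not compared in their GSH response. Falls were opposed by a GSH rise in 29 of the 306 (9.48%), where GSH raised 13.9% of all tested features. They were joined by a GSH fall in 148 of the 306 (48.4%). The GSH calls came from the same model as the fly calls, so they are not independent.

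One feature had the most negative change among all called features, -4.16. That feature was listed at 0 in all 3 fly-closed libraries and held 44.9, 7.29 and 15.0 TPM in fly mock libraries, and in the GSH experiment it was above 0 in a single library, GSH mock replicate 3, at 10.5 TPM. Only mock libraries, the group where it is high, let it pass the plant rule and the abundance limit, so no p is given for it. The count of falls dropped with every library left out: it was 147, 183 and 164 without fly-closed replicate 1, 2 and 3, and 196, 117 and 153 without fly mock replicate 1, 2 and 3, where all 6 libraries gave 306. The count of rises dropped as well under each of these omissions, to between 1178 and 1304, where all 6 libraries gave 1541.

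An assembly component is the unit in which an assembler groups related sequences. Most components held a single tested feature: of 39052, 4308 held 2 or more. Of the 1541 risen features, 1094 had no tested sister in their component. Rises were not more frequent among such features: features with a tested sister rose in 4.60% of cases and features without one in 3.15%. Of the 447 risen features with a tested sister, 160 (35.8%) had a sister that rose too. These 160 lay in 76 of the 363 components that held a rise and at least 2 tested features, with at most 3 in one component. Whether this sharing exceeds the background was not tested. Reads may be divided between sisters, which was not tested. Falls shared a component in 4 cases, and 5 components held both a rise and a fall.

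Whole-library measures depended on how plant features were defined. Plant features above 0 numbered 59107, 60503 and 58712 in fly-closed libraries and 74756, 75083 and 76559 in fly mock libraries. The rule counts every feature of a mock library as a plant feature, which raises the mock counts, so no test is given. Counted over features above 0 in a GSH mock library, an alternative chosen after the data had been seen, there were 53535 ± 892 in fly-closed and 52740 ± 928 in fly mock libraries (SD, n = 3 each; two-sided exact permutation p = 0.4). The 100 most abundant features held 28.1% ± 0.156 of plant TPM in fly-closed and 26.5% ± 0.814 in fly mock libraries (SD, n = 3 each). The rule leaves 8.89% to 17.8% of TPM out of fly-closed libraries and none out of mock libraries, so no test is given for this share either. Its order flipped, to 28.5% ± 0.174 and 30.1% ± 0.567, when plant features had to be above 0 in 3 mock libraries.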

How the data were processed

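The authors deposited 1 table of 12 libraries, named as RSEM gene counts. The submitters' processing notes name DESeq2 (version 1.16.1), RSEM, Trimmomatic and cutadapt without saying what each did. The deposited values are a rescaled signal and no counts: 100% of the low values (under 60) of every library were whole steps of its sum over 1e+08, within 0.0051, so each is a per-million value rounded to 2 decimals and multiplied by a library total. It was taken to be TPM; whether it was corrected for feature length could not be shown.

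Each value was divided by its library sum and multiplied by 1e+06. Plant features were tested at 0.526 TPM or more (which a value of 10 gives at the median sum) in 3 or more libraries. Libraries were scaled by an unweighted trimmed mean of log ratios (30% of ratios and 5% of abundances trimmed at each end). One limma model (version 3.58.1, R version 4.3.3) of all 4 groups was fitted to log2(TPM + 1), leaving 8 residual degrees of freedom, with trend and robust moderation of variances. Benjamini-Hochberg adjusted p below 0.05 was called. The count of features above 0 in a GSH mock library, 1 value a library, was compared by exact permutation. The calculation was tested on simulated data with normal noise. It recovered 76% of 100 planted 2-fold changes and 90% of 100 planted 4-fold changes, with 16 false calls among 44458 features. Changes were planted only in features with a mean log2 level of at least 3, so recovery of lower features was not tested.

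Named features were called, above 0 in all 6 libraries of the fly experiment, with no overlap of the groups and with a mean log2 level of 3 or more; 785 that rose and 196 that fell met this. The largest change and the largest TPM difference were taken in each direction. The members, classes and rules were chosen with earlier results of these data known. Alternatives covered scaling, filter, pseudocount, variance, replicate block, TPM denominator, plant rule, libraries in the fit and leaving out each library. No gene names or sequences were used here.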

Additional observations from a re-analysis of the deposited data

Results flagged for a closer look

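The response to flies differed from the response to GSH, by limma's test of the difference, for 6128 of the 44458 tested features (13.8%), with the fly response above for 2330 and below for 3798. Every named feature was among them. The difference, fly minus GSH on the log2 scale, was 0.87 for TRINITY_DN22695_c0_g1, -3.50 for TRINITY_DN15669_c2_g1, -2.57 for TRINITY_DN27354_c0_g1 and 0.54 for TRINITY_DN8981_c1_g1. For the last of these both stimuli lowered the feature and GSH did so by more. The difference for TRINITY_DN22695_c0_g1 was 0.20 with a pseudocount of 0.1 (limma adjusted p = 0.718). With no scaling between libraries 73.6% of the features that differed had the fly response above, in place of 38.0%, and the median difference of all tested features was 0.29 in place of 0.04.

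A signal also lay in features that the comparison leaves out. Features at 0 in all 6 mock libraries held 12.6% ± 4.66 of TPM in fly-closed traps and 4.51% ± 0.215 in GSH-closed traps (SD, n = 3 each), and 0% in the mock libraries by the rule. Their origin was not tested.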

How the results depend on the processing

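Counts of all calls and of rises after flies stayed within 1.5 times the reported values under all 17 alternatives. The members changed more than the counts. With the fly experiment alone, where 36715 features were tested, 1643 were called, and 1387 of these were among the reported 1847. Of its 317 falls, 177 were among the reported 306. Leaving out 1 library gave 1330 to 1488 calls, 1178 to 1304 rises, 117 to 196 falls, 5060 to 5255 features that differed between the responses, 1092 to 1153 rises shared with GSH, 44 to 99 falls shared with GSH, and 73 to 153 risen features with the fly response above and 732 to 781 with it below. The difference in plant features above 0 ran from -16556.5 to -15478.8 and that in the share of the top 100 from 1.25 to 2.05 percentage points; they reversed to 795 over features seen in the GSH mock and to -1.63 under the rule of 3 mock libraries. With no filter on low values there were 100 falls, 33 falls shared with GSH, 3561 features that differed and 78 risen features with the fly response above. That last count was 67 under the rule of 3 mock libraries, 706 with all features and 94 without features at 0 in the GSH experiment. Without trend and robust options there were 170 falls, 41 of them shared with GSH. With no scaling 9797 features differed between the responses. The cause of these shifts was not tested.

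Replicate numbers did not pair the libraries: deviations of same-numbered fly-closed and fly mock libraries correlated at 0.03, -0.03 and -0.01 over 14797 features. With the replicate block there were 1285 calls and 140 falls, 65 of them shared with GSH. Read depth is unknown, so a low TPM may rest on few reads.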

Other observations

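Features at 0 in all 6 mock libraries were mostly private to 1 fly-closed library. Of those above 0 in fly-closed traps, 49286 were seen in 1 of the 3 libraries, 5571 in 2 and 2258 in all 3. The private ones held 17.0%, 10.2% and 8.18% of TPM in fly-closed libraries 1, 2 and 3, while those seen in all 3 held 0.327%, 0.318% and 0.299%. The share common to the 3 libraries was thus small and steady, and the difference between libraries lay in the private features. Of the 2258 features seen in all 3, 206 were also above 0 in a GSH-closed library.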
